A study of Mus musculus with 12 samples.

Results

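The 10 genes described here are the glucocorticoid receptor gene *Nr3c1*, the receptor's chaperones *Fkbp5*, *Fkbp4*, *Hsp90ab1* and *Ptges3*, the hormone supply genes *Hsd11b1* and *Serpina6*, and the target and feedback genes *Tsc22d3*, *Sgk1* and *Zbtb16*. They were taken by symbol from a table of 54838 gene identifiers, and all 10 were found and passed the filter on low counts in every comparison. Livers of 12 C57BL/6J mice were sequenced to ask how zinc in the drinking water and the synthetic glucocorticoid dexamethasone (Dex) alter transcription, alone and combined. The control mice (water-PBS, n = 3) received normal drinking water for 7 days and an injection of phosphate-buffered saline. The zinc-PBS mice (n = 3) received 25 mM ZnSO4 in the drinking water for 7 days before the same injection, the water-Dex mice (n = 3) normal water before 200 µg Dex, and the zinc-Dex mice (n = 3) the zinc water before the same dose of Dex. The injections preceded sampling by 2 h. The mice of all groups carried no engineered allele, kept their adrenal glands and so their own corticosterone, and were adult females from a commercial supplier according to the study's methods.

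In the absence of hormone the glucocorticoid receptor sits in the cytoplasm in a complex with the chaperone Hsp90, the co-chaperone p23 (the product of *Ptges3*) and an immunophilin. FKBP51, made by *Fkbp5*, holds the receptor in a state of low hormone affinity, and on hormone binding it is exchanged for FKBP52, made by *Fkbp4*, which links the complex to dynein and nuclear import. The receptor then binds glucocorticoid response elements in DNA and switches on genes that include *Fkbp5* itself, so that the pathway carries its own brake.

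The libraries held 9091152 to 12303527 counts each, and the log2 levels of 9574 genes correlated at r = 0.980 to 0.992 between mice of one group, across genes, which are not independent replicates. Values below are read counts divided by the size factor of each library (normalised read counts), and differences are log2 fold changes with their standard error (SE). A gene is said to have risen or fallen where the adjusted p from DESeq2 over all genes was below 0.05, and is counted as called where its log2 fold change was also beyond 0.8 in either direction. Nothing in the labels says how the mice were housed or allotted, so the p-values measure the spread between these 12 samples. The tissue carried liver markers: the summed normalised read count of 6 hepatocyte markers lay between 1198675.5 and 1392701.8 in water-PBS, with none at 0. It was 1272892.0 to 1408076.7 in zinc-PBS, 1557169.4 to 1668237.0 in water-Dex and 1642794.9 to 1723633.4 in zinc-Dex, also with none at 0. Of 5 adrenal gland markers, *Cyp11b1* and *Mc2r* were at 0 in every group, and the others were not. The summed level of all 5 was 13.7 to 16.5 in water-PBS, 19.2 to 23.5 in zinc-PBS, 20.3 to 27.7 in water-Dex and 28.9 to 33.7 in zinc-Dex. The 1 adrenal marker with an adjusted p was called higher from water-PBS to zinc-Dex (log2 fold change 1.03). The summed level of 5 lymphocyte markers was 33.7 to 44.1 in water-PBS, 29.7 to 46.9 in zinc-PBS, 8.51 to 10.2 in water-Dex and 16.3 to 20.6 in zinc-Dex. That of 5 endothelial markers was 2634.7 to 2974.0 in water-PBS, 2812.2 to 2951.6 in zinc-PBS, 2946.1 to 3205.2 in water-Dex and 3099.9 to 3266.8 in zinc-Dex. The endothelial markers did not move together: from water-PBS to zinc-Dex 1 was called higher, 1 was called lower and 3 did not pass. The part of these cell types in the results below was not tested. In bulk tissue, fewer cells of a type and less RNA per cell cannot be told apart.

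Most differences among the 10 genes came with Dex. In water-drinking mice *Fkbp5*, *Sgk1*, *Tsc22d3* and *Zbtb16* rose and *Nr3c1* fell, while *Fkbp4*, *Hsp90ab1*, *Ptges3*, *Hsd11b1* and *Serpina6* did not pass the test. This made 4 of 10 members called, all higher, against 9.68% of the 14221 genes tested, of which 4.89% were called higher. At the adjusted p alone, 5 of 10 members passed against 21.6% of genes, and the groups of 8 members did not overlap, as was so for 39% of genes. In zinc-drinking mice *Fkbp5*, *Sgk1*, *Tsc22d3* and *Hsd11b1* rose and *Nr3c1* and *Fkbp4* fell. There 3 of 10 members were called, all higher, against 10.5% of genes called and 5.39% called higher, 6 passed against 22.2%, and 7 did not overlap against 40.1%.

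Zinc alone gave 0 of 10 members called or passed in DESeq2 and in edgeR, against 0.128% of genes called and 0.302% passed, while 2 members had an unadjusted p under 0.05 by either tool. The groups of 0 members were apart, against 11.7% of genes. Zinc on top of Dex likewise gave 0 of 10 by both tools, against 0.469% of genes called and 1.35% passed, with 5 members at an unadjusted p under 0.05 by either. The share of all genes at an unadjusted p under 0.05 was not counted. The members counted at an unadjusted p therefore have no share to be set against, and they show neither an effect of zinc nor its absence. With so few of all genes called or passed, few would be looked for among 10 members. The 0 of 10 therefore says little about these genes. From water-PBS to zinc-Dex, 4 members were called against 11.2% of genes, 7 passed against 24.4%, and 7 did not overlap against 39.9%. The comparisons with Dex share control mice, so they are given side by side.

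**Figure D1:**
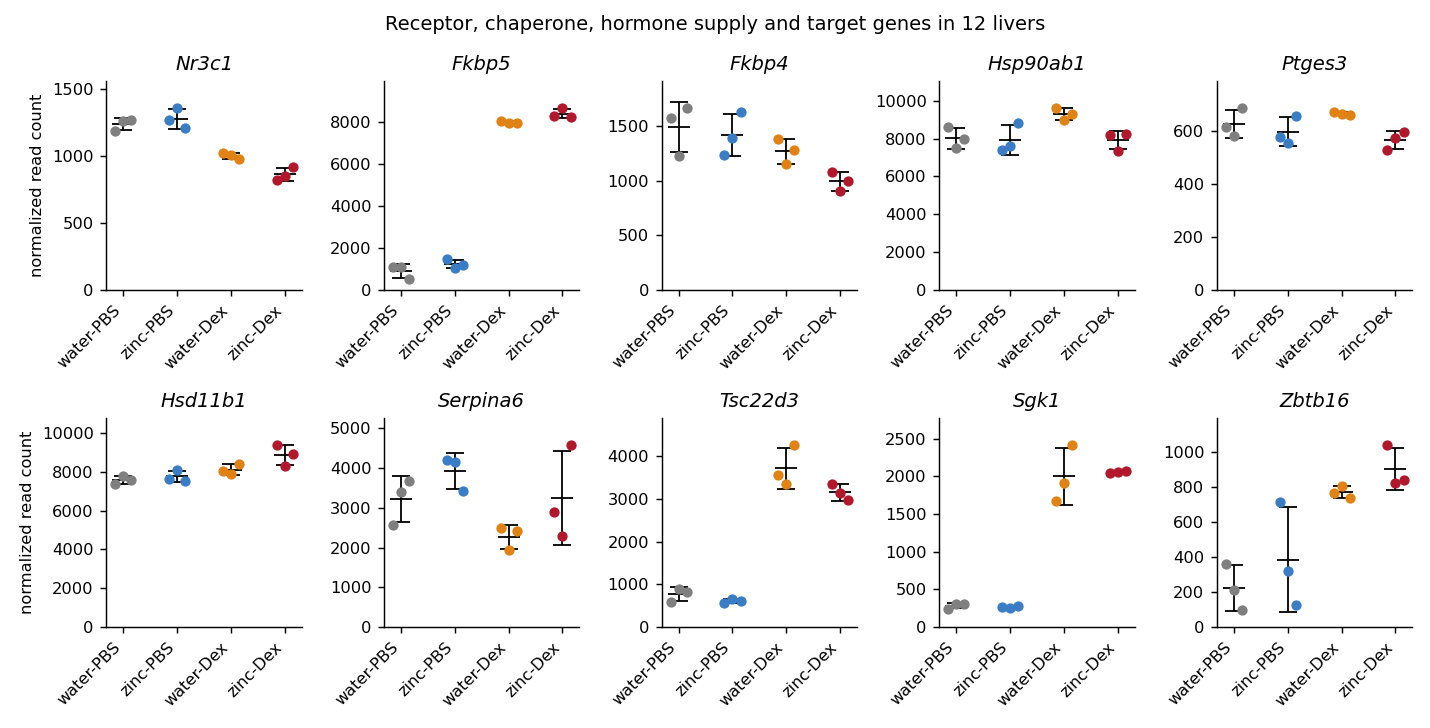
Normalised read count (y axis, linear and starting at 0) of each of the 10 genes in the 4 groups of 3 mice (x axis). Points are single mice, the horizontal line is the group mean and the bars are ± SD. *Fkbp5*, *Tsc22d3* and *Sgk1* separate the Dex from the PBS groups with a wide gap, while *Nr3c1* is lowest in zinc-Dex.

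*Nr3c1* encodes the receptor itself, and its gene lies at chr18:39410545-39519421 on the minus strand of GRCm38. It had 1191, 1265 and 1271 normalised read counts in the 3 water-PBS mice and 1274, 1359 and 1210.4 in the zinc-PBS mice. With Dex it had 1026, 1008 and 980.5 in the water-drinking mice and 827, 855 and 918 in the zinc-drinking mice. Each Dex mouse was below each PBS mouse, and each zinc-Dex mouse was below each water-Dex mouse, while both PBS groups overlapped. With Dex *Nr3c1* fell by 0.31 on the log2 scale in water-drinking mice (SE 0.0785, adjusted p = 0.000953) and by 0.56 in zinc-drinking mice (SE 0.0789, adjusted p = 2.71e-11). Zinc on top of Dex gave a log2 fold change of -0.21 (SE 0.0803), which did not pass after adjustment over all genes (adjusted p = 0.214), and zinc alone one of 0.04 (95% interval -0.11 to 0.20).

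Whether Dex acted differently on *Nr3c1* in zinc-drinking mice was tested by the interaction of zinc and Dex, which came to -0.26 on the log2 scale (95% interval -0.48 to -0.04, adjusted p = 1 over 10395 genes). None of the 10 members was called in this interaction, against 0.0577% of genes, and *Nr3c1* was the one member with an unadjusted p under 0.05, in DESeq2 and in edgeR alike. The size of the fall depends on how libraries are scaled: when each library was scaled to its total count, a setting chosen after the data were seen, the median of all genes moved to -0.21 in water-Dex against water-PBS, and *Nr3c1* to -0.50. Relative to that median it fell under both scalings.

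The genes whose profile over the 4 groups was most like that of *Nr3c1*, by the root mean square difference of their centred log2 means among 9573 genes, were *Dclre1c* (0.0124), *Xpc* (0.0133) and *Tmem106a* (0.0136). *Dclre1c* and *Xpc* encode DNA repair proteins, Artemis and a sensor of DNA damage. The likeness rests on 4 group means and is a description.

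The mineralocorticoid receptor gene *Nr3c2*, which binds the same endogenous hormone, averaged 99.9 normalised read counts in water-PBS and 77.1 in water-Dex (n = 3 each) with a log2 fold change in water-Dex against water-PBS of -0.38 that did not pass (adjusted p = 0.335).

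*Fkbp5*, which encodes the inhibitory immunophilin FKBP51, lies at chr17:28399094-28517527 on the minus strand. It had 1117, 1115 and 536 normalised read counts in water-PBS and 1490.2, 1082 and 1208 in zinc-PBS. The water-Dex mice had 8059, 7994 and 7988, and the zinc-Dex mice 8320.0, 8673 and 8261. The lowest Dex mouse stood far above the highest PBS mouse, and 1 control mouse, water-PBS 3, lay well below the other 2. *Fkbp5* rose 8.68-fold with Dex in water-drinking mice (log2 fold change 3.12, SE 0.203, adjusted p = 8.13e-51) and 6.68-fold in zinc-drinking mice (log2 fold change 2.74, SE 0.202, adjusted p = 1.25e-39).

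Among the 695 genes called higher with Dex in water-drinking mice, *Fkbp5* ranked 62 by fold change, and among the 767 in zinc-drinking mice 102. The spread between mice was narrower in the Dex groups: the coefficient of variation was 36.3% in water-PBS, 16.6% in zinc-PBS, 0.496% in water-Dex and 2.65% in zinc-Dex, given as a description of 3 mice a group. Zinc alone gave a log2 fold change of 0.45 (SE 0.204, adjusted p = 0.777), and zinc-Dex against water-Dex one of 0.07 (95% interval -0.32 to 0.47, adjusted p = 0.971), although the 3 zinc-Dex mice all stood above the 3 water-Dex mice. The interaction was -0.38 (95% interval -0.94 to 0.18, adjusted p = 1).

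Genes whose profile over the 4 groups was like that of *Fkbp5* included *Akr1b7* (0.119), an aldo-keto reductase, and *Bcl2l1* (0.148), which encodes the survival protein Bcl-xL. Of 10 further FKBP genes with an adjusted p, *Fkbp14* alone was called with Dex in water-drinking mice (log2 fold change 0.81, SE 0.191, adjusted p = 0.000242), rising from 72.6 ± 12.8 to 127.8 ± 5.27 normalised read counts (SD, n = 3). It encodes an FKBP of the endoplasmic reticulum. This 1 of 10 is near the 9.68% of all genes called, the call was lost under total-count scaling (0.61), and the median of the 10 was 0.07.

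*Fkbp4*, the gene of FKBP52, lies at chr6:128429735-128438677 on the minus strand and moved the other way. It had 1568, 1226 and 1657 normalised read counts in water-PBS, 1234, 1387 and 1621 in zinc-PBS, 1374, 1149.7 and 1276 in the water-Dex mice, and 1079, 909 and 994 in the zinc-Dex mice. The zinc-Dex mice were the 3 lowest of all 12, and the other 3 groups overlapped each other. With Dex *Fkbp4* fell by 0.51 on the log2 scale in zinc-drinking mice (SE 0.136, adjusted p = 0.00154) and by 0.58 from water-PBS to zinc-Dex (SE 0.136, adjusted p = 0.000216). With Dex in water-drinking mice the log2 fold change was -0.23 (adjusted p = 0.251), and zinc-Dex against water-Dex gave -0.35 (adjusted p = 0.238). The interaction, -0.28 (95% interval -0.66 to 0.09, adjusted p = 1), did not show that Dex acted differently on *Fkbp4* with zinc. Under total-count scaling *Fkbp4* also fell with Dex in water-drinking mice (-0.42, adjusted p = 0.0114), where the median of all genes stood at -0.21. From water-PBS to zinc-Dex it then passed 0.8 and was called (-0.82, adjusted p = 8.2e-08), with that median at -0.25.

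The balance of the 2 immunophilin genes therefore differed between groups, and it was followed as the ratio of their levels per length (TPM, the count per base of merged exons on a scale with the same total in each library). *Fkbp5* over *Fkbp4* was 0.210, 0.268 and 0.0955 in the water-PBS mice and 0.357, 0.230 and 0.220 in the zinc-PBS mice. In the water-Dex mice this ratio came to 1.73, 2.05 and 1.85, and in the zinc-Dex mice to 2.28, 2.82 and 2.45. *Fkbp4* was the more abundant transcript in each PBS mouse and *Fkbp5* in each Dex mouse, and the zinc-Dex mice lay above the water-Dex mice without overlap. The group means were 0.191 ± 0.088, 0.269 ± 0.0761, 1.88 ± 0.162 and 2.52 ± 0.276 (SD, n = 3). The absolute ratio depends on the length used, because *Fkbp5* has 9468 merged exon bases but 3858 in its longest transcript. On the longest transcripts the means were 0.450 in water-PBS, 0.632 in zinc-PBS, 4.41 in water-Dex and 5.92 in zinc-Dex, with the order of the groups kept. The ratio was not tested.

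Relative to the receptor gene, *Fkbp5* over *Nr3c1* was 0.606 ± 0.23 in water-PBS, 0.802 ± 0.152 in zinc-PBS, 6.47 ± 0.124 in water-Dex and 7.90 ± 0.518 in zinc-Dex, again as levels per length. The 3 zinc-Dex mice (8.17, 8.23 and 7.30) all stood above the 3 water-Dex mice (6.37, 6.43 and 6.61). On the longest transcripts the means of *Fkbp5* over *Nr3c1* were 1.25 in water-PBS, 1.65 in zinc-PBS, 13.3 in water-Dex and 16.2 in zinc-Dex. Whether *Fkbp5* stands below *Nr3c1* in the PBS groups therefore depends on the length used. Both ratios combine a numerator and a denominator whose own changes between zinc-Dex and water-Dex did not pass the test.

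**Figure D2:**
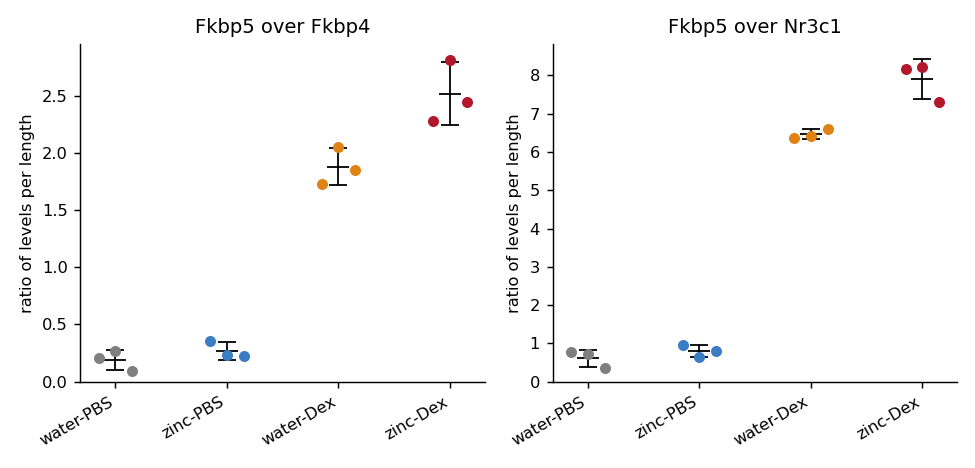
Ratio of levels per length (y axis, TPM over TPM, linear and starting at 0) of *Fkbp5* to *Fkbp4* (left) and of *Fkbp5* to *Nr3c1* (right) in the 4 groups (x axis). Points are single mice and bars are the mean ± SD of 3. The *Fkbp5* to *Fkbp4* ratio lies below 1 in the 6 PBS mice and above 1 in the 6 Dex mice.

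*Hsp90ab1* encodes the constitutive cytosolic Hsp90 and lies at chr17:45567775-45573271 on the minus strand. It had 8591, 7492 and 7987 normalised read counts in water-PBS, 7377, 7589.5 and 8814 in zinc-PBS, 9590.3, 9001 and 9282 in the water-Dex mice, and 8164, 7356 and 8223 in the zinc-Dex mice. The water-Dex mice were the 3 highest of all 12, and the other groups overlapped. With Dex in water-drinking mice the log2 fold change was 0.21 (SE 0.0889, adjusted p = 0.072), in zinc-drinking mice 0.00 (95% interval -0.18 to 0.17, adjusted p = 0.991), and zinc-Dex against water-Dex gave -0.23 (adjusted p = 0.230). None of these passed. The first passed without water-PBS mouse 1 (0.26, adjusted p = 0.0403) or zinc-PBS mouse 3 (0.21, adjusted p = 0.0385). Under total-count scaling it became 0.02, and *Hsp90ab1* fell with Dex in zinc-drinking mice (-0.23, adjusted p = 0.0419), where the median of all genes stood at -0.24.

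*Ptges3*, which encodes p23 and lies at chr10:128058954-128077272 on the plus strand, had 613, 581 and 685 normalised read counts in water-PBS and 579, 555 and 658 in zinc-PBS. The water-Dex mice had 673, 666 and 662, and the zinc-Dex mice 530.0, 573 and 597. The zinc-Dex mice lay below the water-Dex mice and overlapped both PBS groups. The log2 fold changes were 0.09 with Dex in water-drinking mice (adjusted p = 0.596), -0.07 in zinc-drinking mice (adjusted p = 0.682) and -0.23 between the Dex groups (95% interval -0.43 to -0.04, adjusted p = 0.344). *Ptges3* shares 480 bases at 95% identity or more with a pseudogene, *Tsc22d3* 175 bases with 1 pseudogene and *Fkbp4* up to 148 bases with 26 other genes, so their counts are less certain.

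The other chaperones and co-chaperones of the receptor cycle were examined as a list of 18 genes. With Dex in water-drinking mice 6 rose, 0 fell and 12 did not pass, with a list median of 0.22 against -0.01 for all genes tested, where 11.7% of genes rose. Under total-count scaling, which moved the median of all genes to -0.21, 3 rose and 1 fell. *Hspa1b*, an inducible Hsp70, rose from 85.7 ± 21.1 to 236.2 ± 50.3 normalised read counts (log2 fold change 1.47, SE 0.241, adjusted p = 2.47e-08). *Dnaja1*, an Hsp40 co-chaperone that loads clients onto Hsp70, rose from 1789.4 ± 302.9 to 3292.0 ± 275.5 (0.88, SE 0.139, adjusted p = 6.53e-09), and under total-count scaling it rose by 0.68, short of a call. The third called gene, *Hspa1a*, named after its values were seen, had 1.74 ± 0.717 normalised read counts in water-PBS and 15.6 ± 8.33 in water-Dex (SD, n = 3).

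In zinc-Dex against water-Dex, 3 of the 17 listed chaperones with an adjusted p fell and 0 rose, against 0.438% of the 12786 genes tested that fell, and the list median was -0.13. The 3 were named after their values were seen. *Hsp90aa1*, the stress-inducible Hsp90, went from 1223.8 ± 129.8 normalised read counts in water-Dex to 696.7 ± 57.0 in zinc-Dex (log2 fold change -0.81, SE 0.165, adjusted p = 0.000425). It passed but came under 0.8 without water-Dex mouse 1 (-0.74, adjusted p = 0.0176), zinc-Dex mouse 1 (-0.77, adjusted p = 0.00928) or zinc-Dex mouse 2 (-0.79, adjusted p = 0.00353). In edgeR *Hsp90aa1* passed more narrowly (adjusted p = 0.041). *Stip1*, which bridges Hsp70 and Hsp90, fell by 0.50 (adjusted p = 0.0246), and *Ahsa1*, an activator of Hsp90, by 0.45 (adjusted p = 0.00964). How *Stip1* and *Ahsa1* fared in edgeR or without single mice is not given here. The summed level of 5 bile duct markers, none at 0, was 588.1 to 814.3 normalised read counts in water-Dex and 946.8 to 1164.4 in zinc-Dex, and its part in this comparison was not tested. The members *Fkbp4*, *Hsp90ab1* and *Ptges3* had log2 fold changes of -0.35, -0.23 and -0.23 in the same comparison, with all 3 zinc-Dex mice below all 3 water-Dex mice for each, but none passed. Among the 10 members, 6 had Dex groups that did not overlap, as had 20% of all genes tested.

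Without Dex, *Hsp90aa1* had 1039.2 ± 251.5 normalised read counts in water-PBS and 757.1 ± 109.9 in zinc-PBS (log2 fold change -0.46, adjusted p = 0.435). The ratio of *Hsp90ab1* to *Hsp90aa1* per length was 8.75, 12.5 and 9.99 in water-PBS, 13.6, 14.7 and 13.1 in zinc-PBS, 9.32, 10.8 and 9.88 in the water-Dex mice, and 16.3, 14.4 and 14.1 in the zinc-Dex mice. Each zinc-drinking mouse had a higher ratio than each water-drinking mouse, with or without Dex. This ratio was not tested, and its denominator was named after its lower values in zinc-Dex were seen. The interaction of zinc and Dex on *Hsp90aa1* was -0.36 (adjusted p = 1).

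*Hsd11b1* encodes the reductase that regenerates active corticosterone from its inert keto form inside hepatocytes. Its gene lies at chr1:193221634-193264075 on the minus strand. It had 7384, 7808 and 7596.5 normalised read counts in water-PBS, 7656, 8097 and 7548 in zinc-PBS, 8061, 7875 and 8416 in the water-Dex mice, and 9388, 8318 and 8912 in the zinc-Dex mice. The zinc-Dex mice lay above both PBS groups, and the lowest of them overlapped water-Dex. *Hsd11b1* rose 1.14-fold with Dex in zinc-drinking mice (log2 fold change 0.19, SE 0.0661, adjusted p = 0.0204) and 1.17-fold from water-PBS to zinc-Dex (0.22, adjusted p = 0.00478), and was at 0.10 with Dex in water-drinking mice (adjusted p = 0.347). The first of these differences missed the threshold in edgeR (adjusted p = 0.0744), with the 6 libraries of the comparison alone (0.154), and without zinc-PBS mouse 1 (0.0988), zinc-PBS mouse 3 (0.134), zinc-Dex mouse 1 (0.159) or zinc-Dex mouse 3 (0.103). The second missed it without water-PBS mouse 1 (adjusted p = 0.053) or zinc-Dex mouse 1 (0.0619) and with its 6 libraries alone (0.0909). Under total-count scaling the 2 values turned to -0.04 and -0.02.

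*Serpina6* encodes corticosteroid-binding globulin, the plasma carrier of corticosterone that the liver secretes. Its gene lies at chr12:103646630-103657212 on the minus strand. It had 2569.7, 3407 and 3682 normalised read counts in water-PBS, 4213.5, 4166 and 3416 in zinc-PBS, 2481, 1929 and 2424 in the water-Dex mice, and 2900.1, 2295 and 4583 in the zinc-Dex mice. The water-Dex mice lay below both PBS groups, whereas 1 zinc-Dex mouse was the highest of all 12 and the other 2 were low. With Dex in water-drinking mice the log2 fold change was -0.50 (SE 0.208, adjusted p = 0.0701) and in zinc-drinking mice -0.27 (adjusted p = 0.404), so neither passed. The second value rested on zinc-Dex mouse 3: without it *Serpina6* fell by 0.60 (adjusted p = 0.00503). The first passed in 4 of 19 alternative fits, which were those of its 6 libraries alone (-0.49, adjusted p = 0.00482), without water-PBS mouse 1 (-0.64, adjusted p = 0.0202), without zinc-Dex mouse 2 (adjusted p = 0.0262) and without zinc-Dex mouse 3 (adjusted p = 0.00938). Zinc-Dex against water-Dex passed for *Serpina6* without zinc-Dex mouse 2 alone (0.72, adjusted p = 0.0193).

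Of 13 further genes of steroid metabolism and transport, 11 had an adjusted p, and with Dex in water-drinking mice 1 of them rose and 0 fell, against 11.7% of all genes that rose, with a list median of 0.06. The one called was *Cyp3a11*, a hepatic steroid hydroxylase, which went from 46308.5 ± 1083.6 to 82759.2 ± 7684.2 normalised read counts (log2 fold change 0.84, SE 0.116, adjusted p = 1.55e-11). *Cyp3a11* fell with zinc alone (log2 fold change -0.48, SE 0.116, adjusted p = 0.0176), to 33267.4 ± 4845.5.

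*Tsc22d3* encodes GILZ, a leucine zipper protein that carries much of the anti-inflammatory action of glucocorticoids. Its gene lies at chrX:140539528-140600659 on the minus strand. It had 588, 899 and 810.5 normalised read counts in water-PBS and 566, 645 and 607 in zinc-PBS, and with Dex 3551, 3346 and 4260.5 in water-drinking and 3356, 3147 and 2963 in zinc-drinking mice. No Dex mouse came near a PBS mouse, and the 2 Dex groups overlapped at their edge. *Tsc22d3* rose 4.85-fold with Dex in water-drinking mice (log2 fold change 2.28, SE 0.142, adjusted p = 1.85e-55) and 5.21-fold in zinc-drinking mice (2.38, SE 0.142, adjusted p = 3.12e-60). With zinc alone the log2 fold change was -0.34 (95% interval -0.62 to -0.06, adjusted p = 0.670), and between the Dex groups -0.24 (adjusted p = 0.602). The interaction was 0.10 (95% interval -0.29 to 0.50, adjusted p = 1). Without water-PBS mouse 1, the lowest of its group, *Tsc22d3* fell with zinc alone (-0.50, adjusted p = 0.0326).

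Of the TSC22 paralogues, *Tsc22d1* rose with Dex in water-drinking mice from 325.0 ± 67.0 to 775.3 ± 38.2 normalised read counts (log2 fold change 1.26, SE 0.129, adjusted p = 1.4e-20). *Tsc22d2* rose as well (0.80, adjusted p = 8.24e-06), and *Tsc22d4* had a log2 fold change of -0.20 (adjusted p = 0.438). In zinc-drinking mice *Tsc22d4* fell by 0.54 (adjusted p = 0.00599), with an interaction of -0.34 that did not pass (adjusted p = 1).

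*Sgk1* encodes a kinase that acts on ion channels and on insulin-like signalling, and lies at chr10:21882184-21999903 on the plus strand. It had 244, 306 and 306 normalised read counts in water-PBS, 267, 250 and 275 in zinc-PBS, 1677, 1908 and 2417 in the water-Dex mice, and 2039.8, 2053 and 2077 in the zinc-Dex mice. The Dex and PBS mice were far apart, and the narrow range of the zinc-Dex mice fell inside that of the water-Dex mice. *Sgk1* rose 7.01-fold with Dex in water-drinking mice (log2 fold change 2.81, SE 0.137, adjusted p = 1.7e-90) and 7.79-fold in zinc-drinking mice (2.96, SE 0.136, adjusted p = 2.28e-101). The difference between the Dex groups was 0.04 (95% interval -0.21 to 0.29, adjusted p = 0.973) and the interaction 0.15 (95% interval -0.23 to 0.53, adjusted p = 1). *Sgk1* had the smallest p of the 10 genes in both Dex comparisons. Its paralogue *Sgk3*, a kinase of endosomes, rose with Dex in water-drinking mice (0.85, SE 0.133, adjusted p = 4.85e-09), and so did *Sgk2* (0.49, adjusted p = 0.0149), though not under total-count scaling (0.29, adjusted p = 0.17).

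*Zbtb16* encodes the zinc finger repressor PLZF and lies at chr9:48654297-48836222 on the minus strand. It was the most variable of the 10 in the PBS mice, with 357, 211 and 95.5 normalised read counts in water-PBS and 711, 317 and 126 in zinc-PBS. With Dex it had 767.5, 804 and 735 in water-drinking mice and 1038, 824 and 836 in zinc-drinking mice. Each Dex mouse was above each PBS mouse, the closest being water-Dex mouse 3 and zinc-PBS mouse 1. *Zbtb16* rose 3.47-fold with Dex in water-drinking mice (log2 fold change 1.80, SE 0.603, adjusted p = 0.0173) and 4.07-fold from water-PBS to zinc-Dex (2.02, adjusted p = 0.00517). In zinc-drinking mice the log2 fold change was 1.23 (SE 0.601, adjusted p = 0.139), and the interaction of -0.57 (95% interval -2.24 to 1.10, adjusted p = 1) did not pass. The call in water-drinking mice was lost in 5 of 19 alternative fits: without water-PBS mouse 2 (adjusted p = 0.0747), without water-PBS mouse 3 (log2 fold change 1.44, adjusted p = 0.0891), and without water-Dex mouse 1, 2 or 3 (adjusted p = 0.0644, 0.0781 and 0.0613). Without zinc-PBS mouse 1, the highest of its group, it rose in zinc-drinking mice too (2.02, adjusted p = 0.00181).

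**Figure D3:**
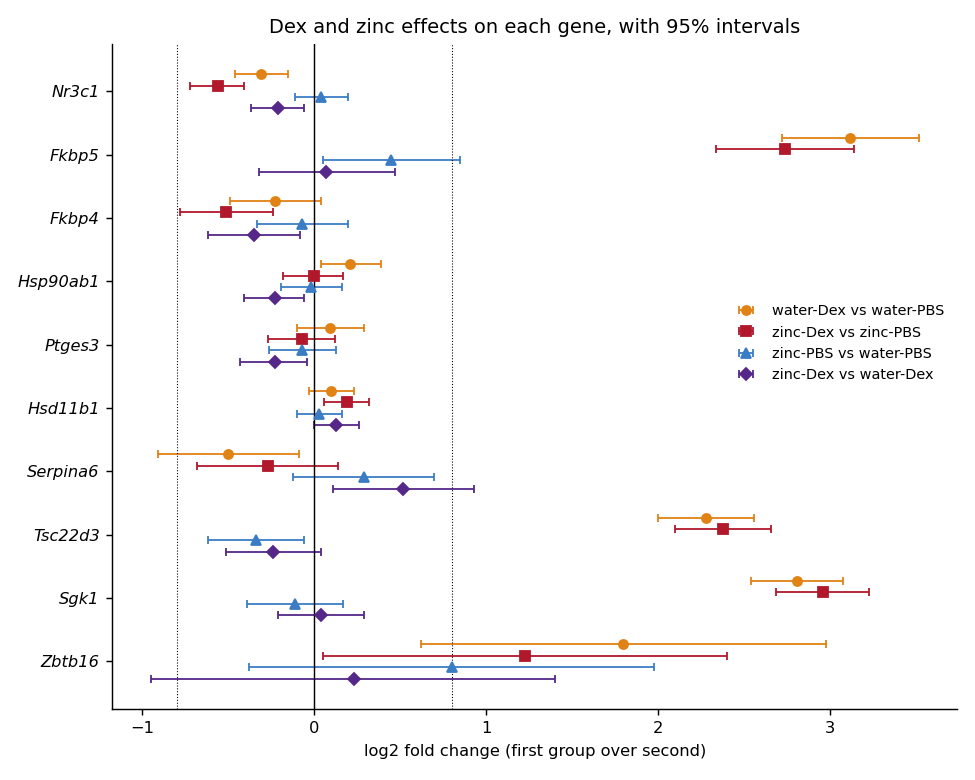
Log2 fold change (x axis) of the 10 genes (y axis) in 4 comparisons, with bars for the 95% interval from DESeq2. The dotted lines mark a log2 fold change of 0.8 in either direction. *Fkbp5*, *Tsc22d3* and *Sgk1* lie beyond the right line with Dex in both kinds of drinking water, and *Zbtb16* has the widest intervals.

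A wider list of 20 glucocorticoid targets, which leaves out the members, was read beside them. With Dex in water-drinking mice 18 rose, 1 fell and 1 did not pass, against 11.7% of all genes that rose. Of the 20, 17 were called higher, against 4.89% of all genes, and the list median was 2.02. Under total-count scaling 17 rose and 1 fell. *Mt2*, a metal-binding metallothionein, went from 27.8 ± 15.6 to 2397.5 ± 145.4 normalised read counts (log2 fold change 6.42, SE 0.379, adjusted p = 9.71e-62). *Ddit4*, an inhibitor of mTOR, went from 86.8 ± 33.3 to 2983.8 ± 481.7 (5.11, SE 0.203, adjusted p = 2.37e-136). *Cdkn1a*, the cell cycle inhibitor p21, rose by 4.83 (adjusted p = 8.11e-44) and *Lcn2*, an iron-scavenging acute phase protein, by 4.51 (adjusted p = 1.05e-13). The exceptions, named after their values were seen, were *Arrb2* (-0.52, adjusted p = 0.0369) and *Angptl4* (1.16, adjusted p = 0.062). In zinc-Dex against water-Dex 0 of the 20 passed, against 1.35% of all genes, so few would be looked for in a list of this size. The list median was 0.14.

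The order of the PBS mice in these targets is given as a description. Of the 17 called ones, 9 had their lowest of the 3 water-PBS values in mouse 3, 7 in mouse 1 and 1 in mouse 2, and 12 had their highest of the 3 zinc-PBS values in mouse 1. The 17 were called against these same water-PBS mice, genes are not replicates of a mouse, and the share over all genes was not counted. These counts therefore do not show whether the mice differed. Among the members that rose, water-PBS mouse 3 was the lowest of its group for *Fkbp5* and *Zbtb16* and water-PBS mouse 1 for *Tsc22d3* and *Sgk1*. Zinc-PBS mouse 1 was the highest of its group for *Fkbp5* and *Zbtb16*, the lowest for *Tsc22d3* and neither for *Sgk1*. Serum corticosterone of these mice was not used here, and its part was not tested.

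Among 18 receptor co-regulators 4 rose with Dex in water-drinking mice, 0 fell and 14 did not pass, a share that passed near the 21.6% of all genes. The list median was -0.02, and 3 rose and 4 fell under total-count scaling. *Ep300*, the acetyltransferase p300, was the one called, going from 414.1 ± 27.6 to 933.1 ± 49.8 normalised read counts (log2 fold change 1.17, SE 0.102, adjusted p = 1.18e-28). In zinc-drinking mice it rose by 1.30 (adjusted p = 5.57e-36).

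**Figure D4:**
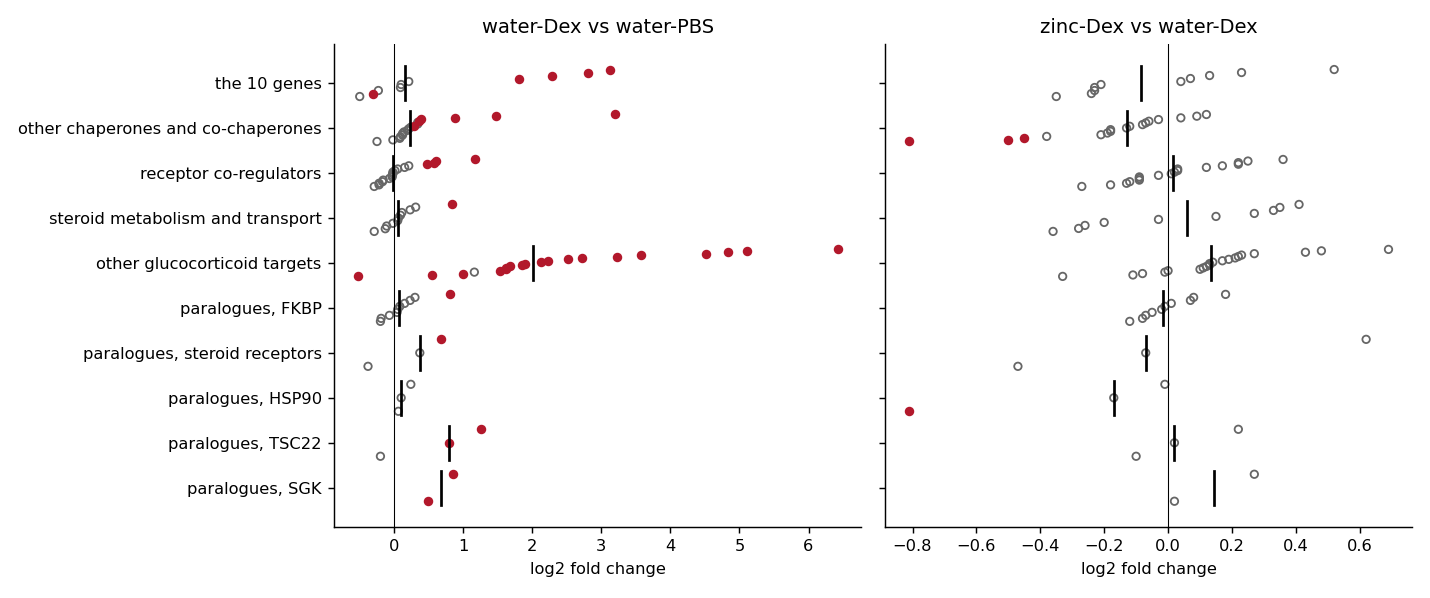
Log2 fold change (x axis, a separate scale in each panel) of the 10 genes and of 9 gene lists (y axis) in water-Dex against water-PBS (left) and zinc-Dex against water-Dex (right). Filled points passed an adjusted p of 0.05 in DESeq2, open points did not, and the vertical bar is the list median. Of the 20 other glucocorticoid targets, 18 rose and stand to the right of 0 on the left, while *Arrb2* fell and stands to the left of it, and the filled points on the right are *Hsp90aa1*, *Stip1* and *Ahsa1*, of which *Hsp90aa1* is in 2 lists.

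Ordered by level per length of merged exons, the 10 genes spanned a wide range in the control livers. *Hsp90ab1* was the highest at 644.1 ± 45.1 TPM, followed by *Serpina6* (440.8 ± 84.9) and *Hsd11b1* (430.2 ± 14.0), which overlapped each other. Below them stood *Fkbp4* (128.0 ± 21.3), *Ptges3* (68.1 ± 7.08), *Tsc22d3* (42.5 ± 9.0) and *Nr3c1* (38.9 ± 1.87), of which the last 2 overlapped. *Fkbp5* (23.4 ± 8.18), *Sgk1* (14.0 ± 1.9) and *Zbtb16* (4.45 to 16.1) were the lowest, each overlapping its neighbour. In water-Dex, *Hsp90ab1* (656.0 ± 27.4 TPM) and *Hsd11b1* (404.4 ± 21.3) stayed at the top, *Tsc22d3* (181.7 ± 26.9) and *Fkbp5* (179.2 ± 3.26) stood next below *Serpina6* (274.2 ± 40.0) and overlapped, and *Nr3c1* was last at 27.7 ± 0.464. *Nr3c1* was also last in zinc-Dex at 23.1 ± 1.64 TPM. The order depends on the length used. On the longest transcripts *Hsd11b1* stood above *Hsp90ab1* in water-PBS (means of 771.9 and 640.0 TPM) and in water-Dex (727.6 and 653.5). *Fkbp5* then stood above *Nr3c1* in water-PBS (47.9 and 38.8) and above *Serpina6* in water-Dex (368.1 and 251.9). In water-Dex *Zbtb16* (26.6) was then below *Nr3c1* (27.7).

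For the members that rose together, the DNA around their transcription starts was searched for receptor binding letters. RefSeq windows on GRCm38.p6, from 250 bases before to 50 bases after a start, were taken for 6 of the 10 members. These made 13 windows in all, since *Sgk1* has 6 and *Tsc22d3* 3. *Nr3c1* was left out of this search. The full palindrome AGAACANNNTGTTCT, the consensus glucocorticoid response element, was sought on both strands together with its single arm AGAACA. A window of each of *Sgk1*, *Tsc22d3* and *Fkbp5*, the 3 that rose most, is shown 5′ to 3′ on the gene's strand. For *Sgk1* and *Tsc22d3* the window shown was picked among several for the letters it holds. No other *Sgk1* window holds the palindrome, and some hold no arm either. The other *Tsc22d3* windows hold neither. Capitals mark the palindrome and its arms.
Sgk1 window at chr10:21993640-21993939, plus strand: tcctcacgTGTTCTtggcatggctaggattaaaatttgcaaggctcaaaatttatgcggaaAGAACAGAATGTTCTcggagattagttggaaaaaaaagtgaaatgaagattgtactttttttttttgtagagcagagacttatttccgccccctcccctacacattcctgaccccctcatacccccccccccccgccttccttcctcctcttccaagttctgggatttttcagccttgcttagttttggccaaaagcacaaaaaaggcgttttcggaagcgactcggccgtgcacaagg
Tsc22d3 window at chrX:140600473-140600772, minus strand: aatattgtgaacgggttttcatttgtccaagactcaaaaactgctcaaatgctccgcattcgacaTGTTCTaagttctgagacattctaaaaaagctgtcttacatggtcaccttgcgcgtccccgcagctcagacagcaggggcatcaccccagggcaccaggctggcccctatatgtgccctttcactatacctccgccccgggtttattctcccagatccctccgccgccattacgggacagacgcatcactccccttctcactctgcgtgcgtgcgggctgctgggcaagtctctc
Fkbp5 window at chr17:28486100-28486399, minus strand: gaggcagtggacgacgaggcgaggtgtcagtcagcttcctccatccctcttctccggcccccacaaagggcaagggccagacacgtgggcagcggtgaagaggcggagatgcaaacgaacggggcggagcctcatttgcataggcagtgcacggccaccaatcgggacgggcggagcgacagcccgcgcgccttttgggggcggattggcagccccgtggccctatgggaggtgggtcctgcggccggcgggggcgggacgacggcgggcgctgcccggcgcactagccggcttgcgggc

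The *Sgk1* window lies inside the gene, with 250 bases in introns and 50 in exons of the GENCODE M21 annotation, and holds the palindrome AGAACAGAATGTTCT from position -189 of that start. Of 32851 RefSeq windows of the same length genome-wide, 3 (0.00913%) hold the full palindrome. The other 2 belong to *Acnat2*, an acyltransferase gene with a log2 fold change of -0.61 in water-Dex against water-PBS, and to *Gm35041*, which had 0 counts. The *Tsc22d3* window, of which 187 bases are exonic and 113 lie outside the gene, holds the arm on the opposite strand from position -185. Of all windows 19% hold such an arm, so its presence there is common. Both shares are per window, while several windows of *Sgk1* and of *Tsc22d3* were searched. The *Fkbp5* window, with 250 intronic and 50 exonic bases, holds neither, which says only that these letters are not in this window. A match is a description of sequence and shows no binding.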

How the data were processed

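Total RNA of 12 mouse livers, 3 per group, was made into stranded TruSeq libraries and read single-end on an Illumina NextSeq. The authors aligned to mm10 with HISAT2 2.0.4, dropped multimapping reads and counted per Ensembl gene with featureCounts. The deposited values are raw counts, 1 column per mouse. The annotation release and strand setting are not given in the sources used here. No member's exons overlap another gene's on either strand. Symbols and positions came from GENCODE M21.

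Differential expression was tested in 1 DESeq2 1.42.0 fit (R 4.3.3) of all 12 libraries with 1 coefficient per group, Wald tests, unshrunken log2 fold changes and Benjamini-Hochberg adjustment over all genes with an adjusted p, following the study's use of DESeq2 and its thresholds of 0.05 and 0.8. edgeR 4.0.16 and 20 alternative settings in all were run, plus scaling to the total count, which was added after the data were seen. The script was tested on simulated counts. TPM used merged exon lengths. Total counts of 9091152 to 12303527 per library gave every member at least 6772 counts over the 12 libraries. The replicate numbers did not pair the mice (of 18 pairs, 1 had a correlation over 0.1, range -0.20 to 0.19).

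The 10 members and all lists were chosen with earlier results of these data known. Named beside the members were at most 4 genes of a list, those called in water-Dex against water-PBS with the largest change and a mean of at least 50 normalised read counts, paralogues of members, and the 3 genes most like *Nr3c1* and *Fkbp5*. Some genes that this rule names are not reported here.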

Additional observations from a re-analysis of the deposited data

Results flagged for a closer look

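One result of the listed genes differed between the drinking waters by its own test: the interaction of zinc and Dex on *Mt2*, a member of the wider target list, was -4.69 on the log2 scale (SE 0.512, adjusted p = 2.66e-16, DESeq2). *Mt2* had 27.8 ± 15.6 normalised read counts in water-PBS, 1168.7 ± 405.8 in zinc-PBS, 2397.5 ± 145.4 in water-Dex and 3871.7 ± 372.9 in zinc-Dex (SD, n = 3). Dex raised it by 6.42 in water-drinking and by 1.73 in zinc-drinking mice. None of the 10 members passed this test. With 3 mice a group, single outlying mice were screened for only by the default outlier filter of DESeq2, gene by gene.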

How the results depend on the processing

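*Nr3c1*, *Fkbp5*, *Tsc22d3* and *Sgk1* passed in 19 of 19 alternative fits with Dex in both kinds of drinking water, and *Fkbp4* in 19 of 19 in zinc-drinking mice. With no fold change threshold the members called became 6 in zinc-Dex against zinc-PBS and 7 in zinc-Dex against water-PBS. Scaling to the total count moved the median of all genes to -0.21, -0.24 and -0.25 with Dex (water-Dex against water-PBS, zinc-Dex against zinc-PBS, zinc-Dex against water-PBS), and the share of called genes that were higher from 50.5% to 30.4%, from 51.4% to 30.3% and from 49.8% to 27.9%. Between the Dex groups that share went from 65% to 41.3%. *Hsd11b1* then turned to -0.04 and -0.02, *Fkbp4* (-0.42) and *Serpina6* (-0.70) fell in water-Dex against water-PBS, and *Hsp90ab1* and *Ptges3* fell in zinc-Dex against both PBS groups (adjusted p = 0.0419, 0.0188, 0.021 and 0.00237). *Cyp3a11* (0.64), *Fkbp14* (0.61), *Sgk3* (0.65) and *Dnaja1* (0.68) still passed in water-Dex against water-PBS but came under 0.8, and *Fkbp4* was called from water-PBS to zinc-Dex (-0.82).

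With the replicate block, members called were 4 with Dex in either drinking water and from water-PBS to zinc-Dex, and 0 in the other comparisons. *Zbtb16* was the member gained in zinc-drinking mice (1.49, adjusted p = 0.012). *Hsd11b1* was lost in zinc-Dex against zinc-PBS (adjusted p = 0.134) and against water-PBS (0.0587). Leaving out 1 library at a time gave 60 genes called between the Dex groups a range of 26 to 103, and edgeR called 21. Zinc alone called 17 genes, with 9 in edgeR, 40 without the threshold and 10 to 33 with 1 library left out. The interaction called 6, with 3 in edgeR and 4 to 22. At this depth and with 3 mice a group, *Zbtb16* has an interval too wide to place a zinc effect.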
